A study of Mus musculus with 26 samples.

Results

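Potassium channel genes are described here across mouse dorsal root ganglia, which hold the cell bodies of the sensory neurons that innervate skin and muscle. Members were all genes whose symbol starts with *Kcn* followed by a family letter and a number, without antisense, opposite-strand or pseudogene names, that reached 10 or more counts in 3 or more of 26 libraries. This rule gave 89 genes, of 93 with such a symbol and 55401 genes in the count tables. The 4 left out for low counts were *Kcne1*, *Kcne2*, *Kcnj1* and *Kcnk15*, which reached 10 counts in at most 2 libraries, while the members nearest the limit, *Kcnv2*, *Kcnmb3* and *Kcnj5*, did so in 6, 7 and 8. By family the members are 17 voltage-gated (Kv) alpha subunits, 10 silent Kv subunits, 5 M-type (*Kcnq*), 8 EAG-type (*Kcnh*), 8 calcium- or sodium-activated, 14 inward rectifier, 13 two-pore and 14 accessory genes.

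Potassium channels let potassium leave the cell and so set the resting potential and end the action potential of a neuron. Kv alpha subunits form the pore of channels that open on depolarization. Silent Kv subunits form no channel alone but join Kv2 subunits, M-type and two-pore channels steady the resting potential, calcium-activated channels follow bursts of firing, and inward rectifiers serve neurons, glia and vessel walls. In sensory neurons, loss of potassium current after nerve injury is a well-known part of hyperexcitability.

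The study sequenced RNA of L4 to L6 ganglia, collected 2 to 4 h after lights on, from mice with floxed *Ahr* (the aryl hydrocarbon receptor, a ligand-activated transcription factor). Libraries labelled cKO (conditional knockout) come from Ahr f/f Thy1-CRE(ERT2/EYFP) mice, in which the Thy1 promoter drives a tamoxifen-inducible Cre mainly in neurons, so that other cells of the ganglion keep the gene. Controls carried 1 or 2 floxed alleles without Cre. Naive and crushed ganglia (3 control and 3 cKO libraries each, crushed ones taken 1 day after sciatic nerve crush) came from mice given tamoxifen at 100 mg/kg for 5 days at 28 weeks and used 5 weeks later, controls included. A second pair of tables held semi-purified neurons 24 h after seeding (3 control and 3 cKO libraries) and ganglia 1 day after sham surgery, with the ipsilateral and the contralateral side of 2 control and 2 cKO mice. For these libraries the labels give no tamoxifen treatment. Sham libraries are labelled male, and naive and neuron libraries female.

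Total counts ran from 20169388 to 23540375 in naive and crushed ganglia, 39306414 to 58751270 in sham ganglia and 25299938 to 88180611 in neurons. *Ahr* itself was not lower in the libraries labelled cKO: it stood at 18.9 to 23.8 CPM (a gene's share of the library's counts, scaled to 1e+06 counts) in naive control and 22.7 to 28.1 in naive cKO libraries, at 36.2 to 38.7 against 38.8 to 40.5 after crush, and at 44.7 to 56.1 against 44.3 to 56.6 in neurons. These counts are 1 value for the whole gene and do not count the floxed part alone. They do not check the deletion, and cKO below means labelled cKO. Crush control library 3, labelled male, held female transcripts, and crush cKO library 2, labelled female, held male ones. By transcripts all naive libraries are female and 2 of the 3 crush cKO libraries are male. Neuron control library 1 had the fewest counts of the neuron libraries, and sham ipsilateral cKO libraries 1 and 2 stand apart as described with the sham values.

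The promoters of 4 members are shown because the data turn on how these genes moved: *Kcnk16* rose most after crush, *Kcnj3* fell most among members at 1 CPM or more, and *Kcne3*, which rose, and *Kcnj9*, which fell, hold a motif searched here. Each window is RefSeq sequence of build GRCm38.p6, from 250 bases before to 50 after the annotated start, read 5′ to 3′ along the gene's strand, and capitals mark a motif match. The windows are chr14:20269220-20269519 (minus strand), chr2:55435720-55436019 (plus), chr7:100176420-100176719 (plus) and chr1:172329273-172329572 (minus).
Kcnk16: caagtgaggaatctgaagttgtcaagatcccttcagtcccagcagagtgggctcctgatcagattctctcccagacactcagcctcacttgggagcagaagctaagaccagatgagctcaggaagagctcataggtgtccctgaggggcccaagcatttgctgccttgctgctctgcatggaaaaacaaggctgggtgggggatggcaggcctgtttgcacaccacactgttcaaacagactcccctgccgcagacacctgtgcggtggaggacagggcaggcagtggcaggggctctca
Kcnj3: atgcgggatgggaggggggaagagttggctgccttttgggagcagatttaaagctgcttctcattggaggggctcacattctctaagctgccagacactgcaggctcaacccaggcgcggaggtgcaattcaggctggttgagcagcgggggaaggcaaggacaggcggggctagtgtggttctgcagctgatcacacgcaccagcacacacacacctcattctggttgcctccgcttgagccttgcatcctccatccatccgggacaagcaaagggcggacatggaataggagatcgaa
Kcne3: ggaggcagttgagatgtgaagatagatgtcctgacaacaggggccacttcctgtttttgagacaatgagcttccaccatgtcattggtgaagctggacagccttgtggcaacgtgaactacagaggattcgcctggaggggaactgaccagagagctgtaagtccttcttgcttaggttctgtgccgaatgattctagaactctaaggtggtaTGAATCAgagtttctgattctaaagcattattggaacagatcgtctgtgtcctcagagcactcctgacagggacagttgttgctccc
Kcnj9: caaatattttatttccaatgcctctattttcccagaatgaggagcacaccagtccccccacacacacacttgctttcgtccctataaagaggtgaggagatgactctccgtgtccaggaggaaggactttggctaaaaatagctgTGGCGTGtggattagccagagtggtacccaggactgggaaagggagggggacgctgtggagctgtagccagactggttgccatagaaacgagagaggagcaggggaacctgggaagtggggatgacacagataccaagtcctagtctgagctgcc

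Of the 89 members, 65 had such a window in the RefSeq table. An AP-1 site (TGANTCA, both strands) was in 3 of these, or 4.62%, against 5.48% of 13387 windows of all genes tested for crush. The 3 were *Kcne3*, *Kcnip3* and *Kcnip4*, and none of the 31 windows of members that fell after crush held it. The core of the AhR response element (TNGCGTG, both strands, overlapping neither other motif) was in 5 windows, those of *Kcnab2*, *Kcnd3*, *Kcnj9*, *Kcnmb2* and *Kcnmb3*, or 7.69% against 7.47% of all windows. A cyclic AMP response element (TGACGTCA, both strands) was in 0 of 65 windows, against 2.89% of all. A match is a description of these letters in this window and not a binding site.

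In naive control ganglia the members took 0.648% to 0.741% of all counts. Per kilobase of exon, the highest level was that of *Kcnab2* (the Kv beta 2 subunit, which traffics Kv1 channels), at 191.3 CPM per kb ± 21.1 (SD, n = 3). *Kcnip3*, a calcium sensor that also binds Kv4 channels, followed at 98.0 ± 3.64. *Kcna1* (61.1 ± 11.2), *Kcnd1* (56.7 ± 7.64) and *Kcna2* (52.5 ± 6.56), pore subunits of axonal Kv1 and somatic Kv4 channels, came next and did not differ beyond their spread. The deposited FPKM, scaled by gene span including introns, ranked them otherwise: *Kcna1* at 50.1 ± 8.03, *Kcna2* at 46.5 ± 4.64, *Kcnd1* at 19.3 ± 2.04, *Kcnab2* at 12.6 ± 1.02 and *Kcns1* at 12.2 ± 1.14 (SD, n = 3). The lowest by that measure were *Kcnq1* (0.0123), *Kcnh4* (0.0092), *Kcnmb3* (0.00795), *Kcnj5* (0.00794) and *Kcnd2* (0.00693), of which *Kcnd2* and *Kcnq1* span long introns and were not among the 5 lowest per kilobase of exon. The sources do not say whether reads in introns were counted. If they were, genes with long introns stand too high per kilobase of exon. *Kcnab2* (87130 bases, 5578 in exons) and *Kcnip3* (65597 and 3546) have long introns, and *Kcna1* (5988 and 4780) does not.

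More potassium channel genes were lower than higher in crushed relative to naive ganglia. The labels give no surgery for naive ganglia, so crush and the operation around it cannot be told apart here. Averaged over genotypes (6 crushed against 6 naive libraries), 84 members could be tested, and 40 fell and 11 rose by edgeR's quasi-likelihood test at an adjusted p under 0.05, the adjustment running over all 21261 genes tested. Among all genes 34.1% were called, 15.7% lower and 18.4% higher, whereas 47.6% of the members were lower and 13.1% higher. The median log2 fold change was -0.21 over the members and -0.02 over all genes, so that the typical fall was small. Groups did not overlap, in that every crushed library lay below every naive one, for 24 members, and lay above for 3, against 7.54% and 11.7% of all genes. *Kcna7*, *Kcnj5*, *Kcnk7*, *Kcnmb3* and *Kcnv2* had too few counts to be tested.

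**Figure D1:**
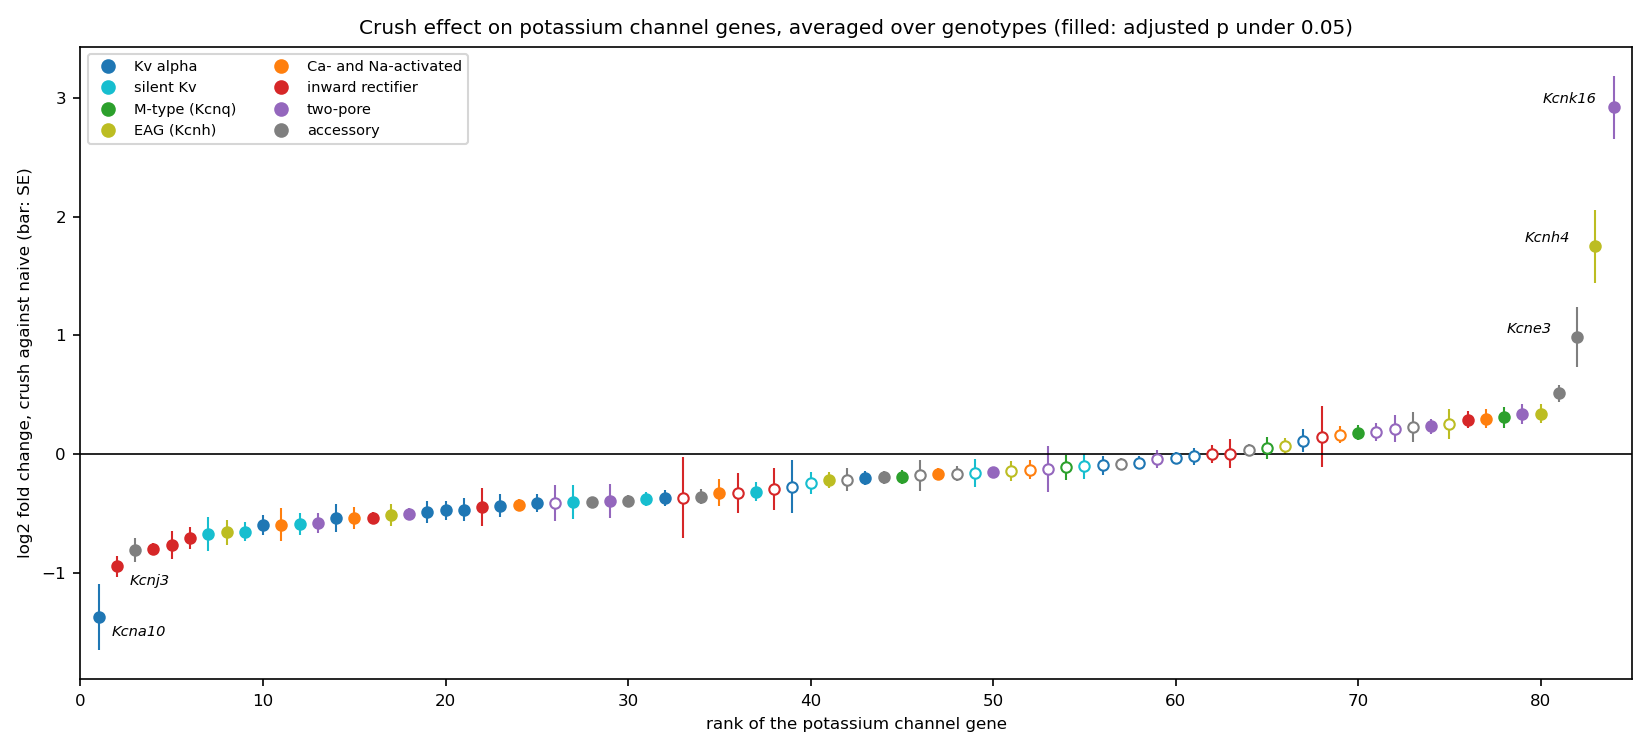
The 84 tested potassium channel genes on the horizontal axis, by rank of the log2 fold change after crush averaged over genotypes (vertical axis, bars SE). Colours are families and filled points are the 51 with an adjusted p under 0.05: 40 lie below 0 and 11 above, with *Kcnk16* at 2.92 and *Kcna10* at -1.38 at the ends.

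In the control libraries alone (3 against 3), 27 members fell and 9 rose, 36 in all, against 8.73%, 12.9% and 21.6% of all genes. In the cKO libraries 29 fell and 2 rose, 31 in all, against 7.89%, 10.7% and 18.6% of all genes. Crushed and naive libraries did not overlap for 33 members on the lower and 13 on the higher side in control (17.1% and 21.1% of all genes), and for 36 and 8 in cKO (17.6% and 18.5%). These comparisons share no library. Of the 36 and 31 called, 23 fell in both genotypes and 2, *Kcnk16* and *Kcnmb4*, rose in both, which together is 69.4% of the control calls and 80.6% of the cKO calls. Over all genes the shares called the same way in both were 65.1% and 75.6%. No member was called in opposite directions, and 75 of 84, or 89.3%, had the same sign in both, against 77.9% of all genes. With sex as read from transcripts in the model, the cKO comparison called 8 members and the averaged one 36, and of all genes 6.65% and 24.5%. Without both libraries whose transcripts go against their labelled sex, the calls were 34 in control, 21 in cKO and 42 averaged, and of all genes 18.5%, 11.1% and 27.5%. The members called kept their direction in those fits, in each of the 3 comparisons.

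**Figure D2:**
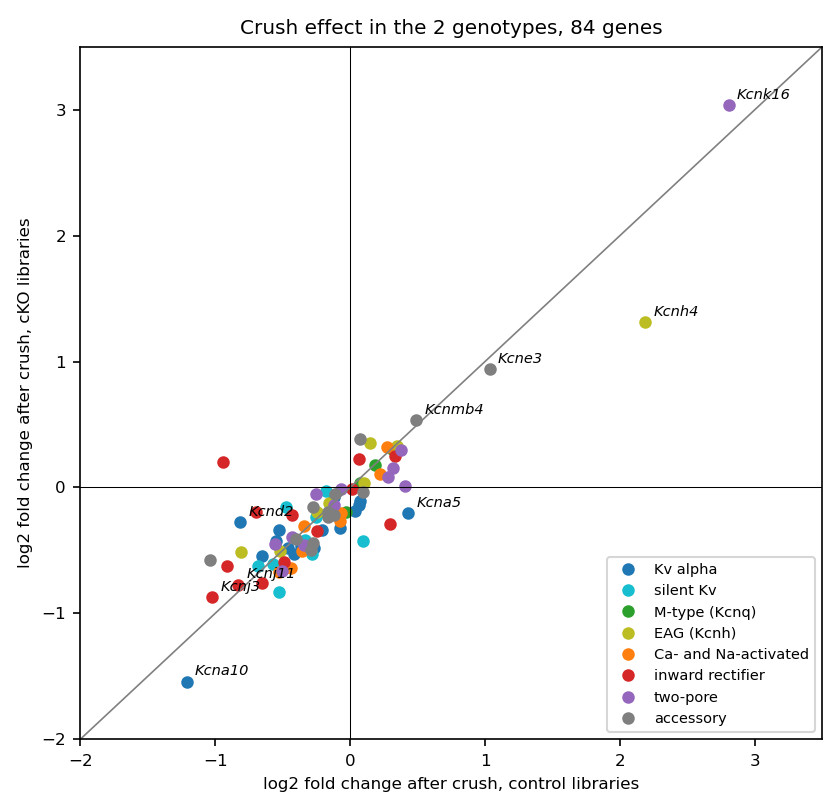
Log2 fold change after crush in control libraries (horizontal axis) against that in cKO libraries (vertical axis) for 84 potassium channel genes, coloured by family, 3 libraries a group. The grey line marks equal change. 56 genes lie below 0 on both axes and 19 above 0 on both, with *Kcnk16* at 2.81 and 3.04.

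Markers of other cells are given beside these counts. The summed level of 9 neuron markers was 6320 to 7515 CPM in naive and 6320 to 7558 CPM in crushed ganglia, with a median log2 fold change of -0.05 over the list and 2 of 9 lower (*Isl1* and *Rbfox3*). Of 5 large neuron markers 1 fell (*Pvalb*) and 1 rose (*Spp1*), with a median of -0.15, and their summed level was 2818 to 3665 CPM in naive and 2577 to 3574 CPM in crushed ganglia. Of 7 nociceptor markers 1 fell (*Mrgprd*) and 1 rose (*P2rx3*), with a median of -0.02. All 7 markers of injured neurons rose, with a median log2 fold change of 3.28. Of 7 satellite glia markers 1 rose and 1 fell, and none of 6 myelinating Schwann cell or 7 macrophage markers was called. Of 5 mural cell markers 1 rose and 2 fell (*Pdgfrb* and *Cspg4*), of 5 endothelial markers 1 fell, and of 4 fibroblast markers 1 fell. Of 3 red blood cell markers 2 fell (median log2 fold change -0.64), as did 1 of 5 T cell and neutrophil markers (median -0.97). Their part in the member values was not tested. No list had a marker at 0 in these groups. In bulk ganglia, fewer cells of a type and less RNA per cell cannot be told apart.

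Of the 16 Kv alpha subunits tested, 10 fell and 0 rose after crush averaged over genotypes, with a median log2 fold change of -0.40. *Kcna2* (ENSMUSG00000040724.5, chromosome 3, 107101146 to 107115005, plus strand, GRCm38), a pore subunit of axonal low-threshold Kv1 channels, stood at 536, 679 and 661 CPM in naive control and at 648, 611 and 736 CPM in naive cKO libraries. After crush it stood at 337, 406 and 449 CPM in control and at 499, 450 and 416 CPM in cKO libraries. All 6 crushed libraries lay below all 6 naive ones, with a log2 fold change of -0.60 (SE 0.085, edgeR adjusted p 0.00018), or 34.1% less. *Kcna1*, its usual partner in the same channels, ranged from 230 to 343 CPM in naive and from 242 to 315 CPM in crushed libraries, which overlap, and was not called (log2 fold change -0.10, adjusted p 0.408).

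*Kcnb2* (Kv2.2, a delayed rectifier subunit) changed by -0.47 and *Kcnc1*, a fast Kv3 subunit, by -0.44 on the log2 scale, each called. The Kv4 genes *Kcnd1*, *Kcnd2* and *Kcnd3*, which carry A-type current, changed by -0.37, -0.54 and -0.20, each called, and *Kcna4*, an A-type Kv1 subunit, by -0.42. *Kcna10* showed the largest fall of all members, -1.38 (SE 0.278), but stood under 1 CPM in every naive and crushed library, at 33 counts summed over naive control and 13 over crushed control libraries. *Kcnc2*, *Kcnc4* and *Kcna6* lay within 0.08 of 0, and *Kcna6* counts are uncertain because an overlapping gene holds 91.5% as many.

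**Figure D3:**
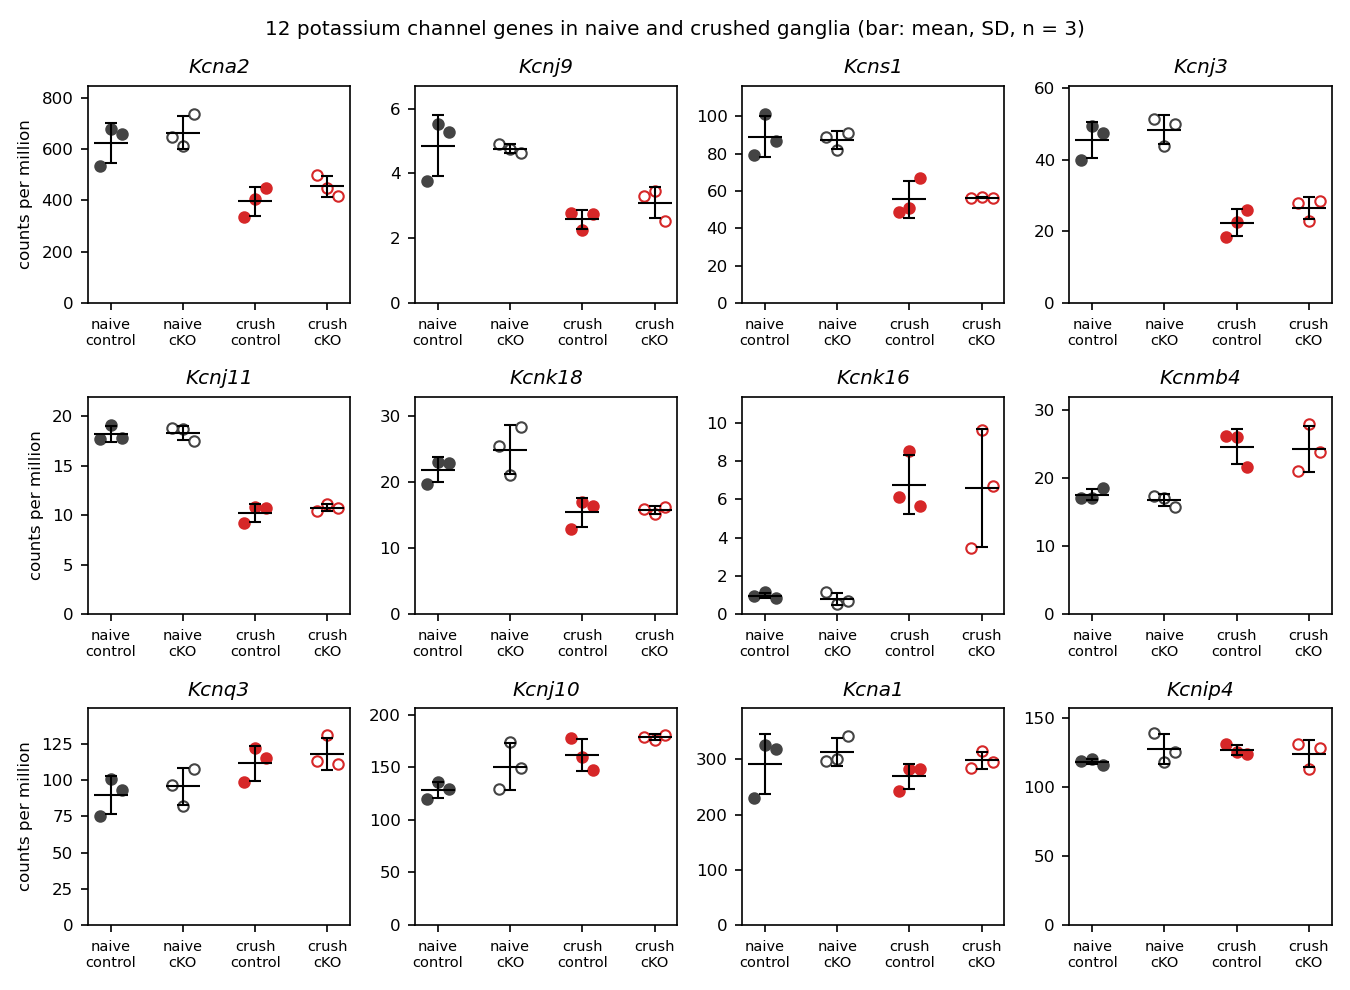
Level in CPM (vertical axis, from 0) of 12 potassium channel genes in each of 3 libraries of naive control, naive cKO, crush control and crush cKO ganglia. Bars are mean and SD, and open points are cKO. *Kcna2*, *Kcnj9*, *Kcns1*, *Kcnj3*, *Kcnj11* and *Kcnk18* are lower in all 6 crushed libraries, *Kcnk16* and *Kcnmb4* are higher in all 6, and *Kcnq3*, *Kcnj10*, *Kcna1* and *Kcnip4* overlap.

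Silent Kv subunits, which join Kv2 subunits, were also mostly lower: 6 of 9 tested fell and 0 rose, with a median log2 fold change of -0.38. *Kcns1* (Kv9.1, chromosome 2, 164163619 to 164171113, minus strand), whose loss is known to raise excitability of large sensory neurons, stood at 79.5, 101 and 86.6 CPM in naive control and 89.0, 81.7 and 91.0 CPM in naive cKO libraries. It stood at 49.0, 50.8 and 66.7 CPM in crushed control and 56.1, 57.0 and 56.3 CPM in crushed cKO libraries. No crushed library reached the lowest naive one (log2 fold change -0.66, SE 0.079, adjusted p 5.41e-05). *Kcng1*, *Kcng2*, *Kcng3*, *Kcng4* and *Kcns3* were the other 5, at -0.68, -0.59, -0.41, -0.32 and -0.38, while *Kcnv1*, *Kcnf1* and *Kcns2* did not pass, at -0.24, -0.17 and -0.10.

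Among inward rectifiers 6 of 13 tested fell and 1 rose (median -0.37). *Kcnj3* (GIRK1, a subunit of channels opened by G protein coupled receptors; ENSMUSG00000026824.11, chromosome 2, 55435970 to 55598145, plus strand) stood at 40.0, 49.5 and 47.4 CPM in naive control and 51.5, 44.0 and 50 CPM in naive cKO libraries. It stood at 18.5, 22.7 and 26.1 CPM in crushed control and 27.9, 22.9 and 28.6 CPM in crushed cKO libraries. This was a 48.2% fall with no overlap (log2 fold change -0.95, SE 0.089, adjusted p 8.01e-06), called in control (-1.03) and in cKO (-0.87) libraries. *Kcnj9* (GIRK3), at 3.78 to 5.51 CPM in naive and 2.24 to 3.45 CPM in crushed libraries, changed by -0.77 (SE 0.115, adjusted p 0.000287), while *Kcnj6* (GIRK2) was at 0.00 (SE 0.124) and not called. As a description, over the 12 libraries, which share the split into naive and crushed, the log2 CPM of *Kcna2*, *Kcns1* and *Kcnj11* was most like that of *Kcnj3*, with a Pearson r of 0.96, 0.959 and 0.959.

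*Kcnj11* (Kir6.2, the pore of the ATP-sensitive channel) had the smallest adjusted p of the members. It stood at 17.7, 19.1 and 17.8 CPM in naive control, 18.8, 18.7 and 17.5 in naive cKO, 9.17, 10.8 and 10.7 in crushed control and 10.4, 11.1 and 10.7 in crushed cKO libraries. The 6 crushed libraries lay well under the naive ones (log2 fold change -0.80, SE 0.054, adjusted p 6.75e-07). *Kcnj4* and *Kcnj12*, strong inward rectifiers of the Kir2 family, changed by -0.71 and -0.54, and *Kcnj8* (Kir6.1, a vessel wall subunit) by -0.45 with an adjusted p of 0.0494. The summed mural markers were at 312.5 to 397.4 CPM in naive and 387.0 to 431.3 CPM in crushed libraries. *Kcnj10* (Kir4.1, the potassium-buffering channel of satellite glia) was the one that rose, from 120 to 174 CPM in naive to 147 to 181 CPM in crushed libraries, which overlap (log2 fold change 0.29, SE 0.070, adjusted p 0.0072). In the separate genotypes it was called in control (0.33) and not in cKO libraries (0.25, adjusted p 0.113).

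Of the 12 two-pore channel genes tested, 3 rose and 4 fell, or 25.0% and 33.3% against 18.4% and 15.7% of all genes. *Kcnk16* (TALK-1, an alkaline-activated two-pore channel known from pancreatic beta cells; ENSMUSG00000023387.8, chromosome 14, 20261376 to 20269199, minus strand) stood at 0.94, 1.13 and 0.83 CPM in naive control and 1.16, 0.55 and 0.67 CPM in naive cKO libraries. After crush it stood at 6.11, 8.54 and 5.67 CPM in control and 3.44, 9.62 and 6.69 CPM in cKO libraries. The lowest crushed library lay above the highest naive one, with a 7.58-fold rise (log2 fold change 2.92, SE 0.266, adjusted p 6.17e-06), on 66 and 52 naive counts against 431 and 418 crushed counts summed over control and cKO libraries. No counted gene overlaps *Kcnk16*. *Kcnk10* (TREK-2) and *Kcnk13* (THIK-1) rose by less, at 0.34 and 0.23.

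*Kcnk18* (TRESK, a background channel of nociceptors) stood at 19.7 to 28.3 CPM in the 6 naive and 12.9 to 16.9 CPM in the 6 crushed libraries, without overlap (log2 fold change -0.58, SE 0.086, adjusted p 0.000251). *Kcnk1* (TWIK-1) changed by -0.51, and the gene Gm45875 on the opposite strand, which holds 47.7% as many counts, by -0.48, so that reads of the pair cannot be told apart. *Kcnk5* and *Kcnk2* (TREK-1) changed by -0.40 and -0.15, both called. *Kcnk3* (TASK-1) was at -0.04 and not called.

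The M-type genes did not share one direction. *Kcnq3* was at 75.3, 101 and 93.3 CPM in naive control and 97.0, 82.4 and 108 CPM in naive cKO libraries, and at 98.5, 122 and 115 CPM in crushed control and 113, 131 and 111 CPM in crushed cKO libraries. The ranges overlap, and the averaged test called a rise of 0.31 (SE 0.088, adjusted p 0.0177). It was not called in control or cKO libraries alone. *Kcnq5* fell by 0.19 on the log2 scale (adjusted p 0.0248), and *Kcnq1* was not called, at -0.11.

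Of the 8 EAG-type genes, 3 fell and 2 rose, or 37.5% and 25.0% against 15.7% and 18.4% of all genes. *Kcnh5* and *Kcnh7* changed by -0.66 and -0.51 and *Kcnh2* (ERG1) by -0.22, whereas *Kcnh6* (ERG2) rose by 0.34. *Kcnh4* had a log2 fold change of 1.75 (SE 0.308, adjusted p 0.000888) without overlap, but stayed under 1 CPM in every naive and crushed library. Among the 8 calcium- or sodium-activated genes, 5 fell and 1 rose, or 62.5% and 12.5%. The small-conductance genes *Kcnn1*, *Kcnn2* and *Kcnn3*, which shape the afterhyperpolarization, changed by -0.43, -0.54 and -0.60, and the sodium-activated *Kcnt1* and *Kcnt2* by -0.17 and -0.33. The counts of *Kcnn2* and *Kcnt2* are uncertain because genes on the opposite strand overlap them. A330093E20Rik, with 18.8% as many counts as *Kcnn2*, changed by -0.50. For *Kcnt2* the gene was 4930590L20Rik, with 30.1% as many counts, which changed by -0.36. With transcript sex in the model *Kcnn3* was not called (-0.45, edgeR adjusted p 0.0606). In that fit 36 of the 51 averaged calls remained, and the other members that lost theirs are not marked here. *Kcnn4* (the intermediate-conductance channel, known from glia, blood and endothelial cells) rose by 0.30 (SE 0.082, adjusted p 0.0141). *Kcnma1* (BK) was at 0.16 and not called (adjusted p 0.104).

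Of 13 accessory genes tested, 5 fell and 2 rose, or 38.5% and 15.4% against 15.7% and 18.4% of all genes. *Kcnmb4*, a BK beta subunit, stood at 15.7 to 18.5 CPM in the 6 naive and 21.1 to 27.9 CPM in the 6 crushed libraries, without overlap (log2 fold change 0.51, SE 0.073, adjusted p 0.000202). Its counts are uncertain: the opposite-strand gene *Kcnmb4os1*, at 56.4% as many counts, rose by 0.59. *Kcne3* rose by 0.99 (SE 0.251), at 0.36 to 1.81 CPM over the 12 libraries, and overlaps a gene with 196% as many counts. *Kcne4*, an inhibitory subunit of Kv1 channels, changed by -0.81 (SE 0.102, adjusted p 7.9e-05), with 2.87 to 4.63 CPM in naive and 1.86 to 2.43 CPM in crushed libraries. The opposite-strand gene Gm29536 holds 148% as many counts as *Kcne4* and changed by -0.42. *Kcnip1* and *Kcnmb1*, which overlap each other, changed by -0.40 and -0.39, *Kcnip2* by -0.36 and *Kcnab2* by -0.20, whereas *Kcnab1*, *Kcnip3* and *Kcnip4* were not called. Leaving out the 21 members with overlapping genes at over 20% of their counts, 32 of 63 fell and 9 rose, or 50.8% and 14.3%.

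Of 26 tested partners of the channels that carry another name, 6 fell and 5 rose after crush averaged over genotypes, or 23.1% and 19.2% against 15.7% and 18.4% of all genes, with a median log2 fold change of -0.05. *Dpp10*, a Kv4 partner, changed by -0.41 (SE 0.061, adjusted p 0.000259) and *Amigo1*, a Kv2 partner, by -0.14 (adjusted p 0.0415). *Lrrc55* and *Lrrc38*, of the BK gamma subunit family, rose by 0.64 (adjusted p 0.000497, without overlap) and 1.122 (adjusted p 0.0324), the latter under 1 CPM on average with overlapping libraries. *Cntn2*, an axonal adhesion molecule found with Kv1 channels, and *Vapa* rose by 0.255 (adjusted p 0.0497) and 0.16 (adjusted p 0.00709). *Hcn2*, a pacemaker channel gene, changed by -0.27 (adjusted p 0.00844). Of 10 repressor genes, 1 was called: *Rest*, the repressor of neuronal genes, rose from 10.4 to 14.7 CPM in the 6 naive to 15.2 to 21.3 CPM in the 6 crushed libraries (log2 fold change 0.51, SE 0.103, adjusted p 0.0023). Whether it bears on the members was not tested.

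The genotypes differed in no potassium channel gene that passed the test. In naive ganglia edgeR called 0 of 84 members, against 0.00941% of all genes, with 9 at an unadjusted p under 0.05 (10.7%, and 5.79% of all genes) and 0 called by DESeq2. The cKO libraries were on the higher side for 68 of the 84, or 81.0% against 50.1% of all genes, with a median log2 difference of 0.09 against 0.00 over all genes. The share of members on the higher side was 63.1% after crush and 65.9% in neurons, against 49.8% and 49.2% of all genes. In sham ganglia it was 37.2% ipsilaterally and 41.9% contralaterally, against 52.0% and 48.9%. In naive control library 1 the members took 0.648% of counts, against 0.688% to 0.758% in the other naive libraries. No cell type marker was called, and 8 of 9 neuron markers were on the higher side, and 0 of 7 macrophage, 0 of 6 myelinating Schwann cell, 0 of 5 T cell and neutrophil and 0 of 3 red blood cell markers. Their part in the member values was not tested. Libraries did not overlap for 7 members on the higher and 3 on the lower side, against 6.14% and 5.32% of all genes. The smallest p values were those of *Kcna6* (112, 139 and 133 CPM in control and 144, 154 and 150 CPM in cKO libraries; log2 difference 0.22, SE 0.071, adjusted p 0.754) and *Kcne4* (-0.43, SE 0.137, adjusted p 0.754). After crush, edgeR called 0 of 84, against 0.00941% of all genes, with 6 at an unadjusted p under 0.05 (7.14%, and 2.72% of all genes) and 0 by DESeq2, and a median of 0.04. No cell type marker was called there. On the higher side were 5 of 9 neuron, 5 of 5 large neuron, 4 of 7 nociceptor and 4 of 7 satellite glia markers. So were 0 of 7 macrophage, 0 of 4 fibroblast and 0 of 3 red blood cell markers. Crush cKO libraries 2 and 3 are male by transcripts and the crush control libraries female. Libraries did not overlap for 7 members on the higher and 1 on the lower side in the cKO libraries, against 4.16% and 4.56% of all genes. *Kcnd2*, a Kv4 subunit, was nearest, at 1.72, 2.05 and 2.13 CPM in control and 3.26, 2.57 and 2.85 CPM in cKO libraries, which do not overlap (log2 difference 0.56, SE 0.174, adjusted p 1). *Kcna5* followed, at -0.38 (SE 0.136, adjusted p 1) with overlapping libraries.

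The test of whether crush acted differently in the genotypes called 0 of 84 members and 0 of 21261 genes with edgeR, with 5 members at an unadjusted p under 0.05 (5.95%, and 2.95% of all genes) and 0 called by DESeq2. *Kcna5*, a Kv1 subunit, was nearest: it stood at 2.47 to 2.60 CPM in naive and 3.01 to 3.83 CPM in crushed control libraries, and at 2.74 to 3.25 CPM in naive and 2.37 to 3.03 CPM in crushed cKO libraries. Its control libraries separate and its cKO libraries overlap, and the difference of the 2 crush effects was -0.63 on the log2 scale (SE 0.192, adjusted p 1). *Kcnj6* followed, with a difference of -0.59 (SE 0.25, adjusted p 1).

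**Figure D4:**
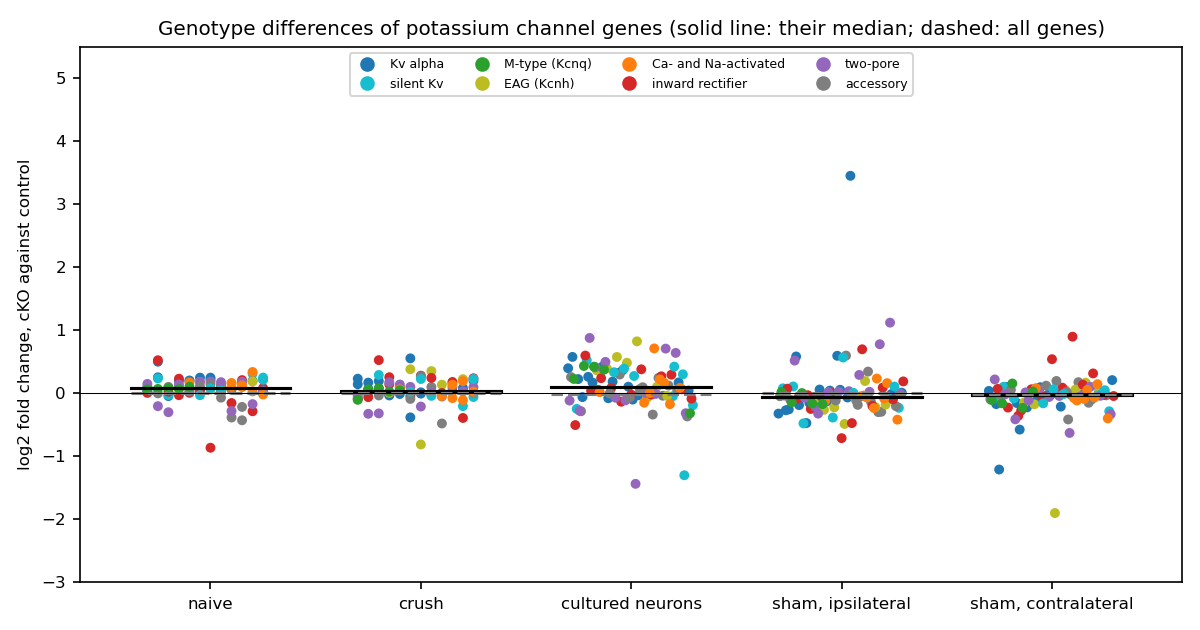
Log2 difference of cKO from control (vertical axis) for each tested potassium channel gene, coloured by family, in naive and crushed ganglia, cultured neurons and both sides of sham ganglia. Solid lines are the medians of the members, between -0.06 and 0.10, and dashed lines those of all genes; the point at 3.46 is *Kcna7* in ipsilateral sham ganglia, and no point passed the test.

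In cultured neurons edgeR called 0 of 88 members between genotypes and 0 of 23295 genes, with 16 members at an unadjusted p under 0.05 (18.2%, and 8.0% of all genes), and DESeq2 called 1. That was *Kcnk4* (TRAAK, a mechanosensitive two-pore channel), at 4.49, 4.73 and 5.43 CPM in control and 8.12, 7.78 and 7.09 CPM in cKO libraries, without overlap (edgeR log2 difference 0.64, SE 0.119, adjusted p 0.316; DESeq2 0.64, adjusted p 0.00172). DESeq2 called 0.70% of all genes there. Libraries did not overlap for 12 members on the higher and 5 on the lower side, against 7.54% and 7.68% of all genes. *Catsperz*, on the same strand, holds 32% as many counts as *Kcnk4*. *Kcnt2* followed (0.997 CPM on average in control and 1.62 in cKO libraries; 0.72, SE 0.180, adjusted p 0.466). Neuron control library 1 had 25299938 counts, and 40 of 89 members were lowest there of the 6 libraries, with 24 lowest in cKO library 2. The same count over all genes is not given, so whether it is particular to the members is not known. Neuron control library 1 also had the highest summed satellite glia markers, at 2895 CPM against 1859 to 2215, and endothelial markers, at 1453 against 941.8 to 1160. Its summed neuron markers were also the highest, at 4776 CPM against 3927 to 4670, and its large neuron markers the lowest, at 1076 against 1301 to 1609. Their part in the genotype differences was not tested.

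The level of most members was lower in cultured neurons than in naive ganglia. The neurons are in another table, so this is a comparison of levels after scaling all 26 libraries together, with no test. In control libraries, 47 of 83 members at 1 CPM or more lay at least 2-fold lower in the neurons with no overlap of libraries, and 8 lay at least 2-fold higher, against 25.4% and 23.5% of all genes. The median member was 2.21-fold lower, and the median gene lay at a ratio near 1 (log2 ratio 0.01). The cKO libraries gave 46 lower and 9 higher, against 23.9% and 23.3% of all genes. The members took 0.226% to 0.306% of the neuron counts. By family, the silent Kv subunits lay lowest, with 8 of 9 at least 2-fold lower and a median of 4.78-fold lower, and the inward rectifiers followed at 3.54-fold lower.

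**Figure D5:**
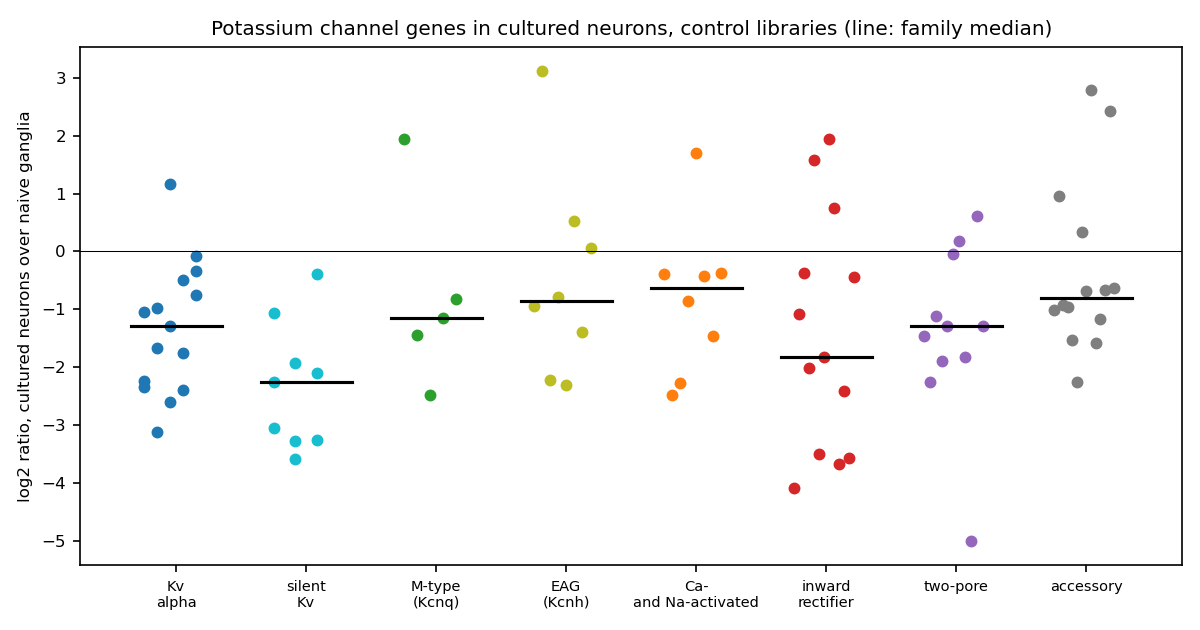
Log2 ratio of the level in cultured control neurons over that in naive control ganglia (vertical axis, mean of 3 libraries each) for 83 potassium channel genes, by family. Black lines are family medians: all 8 lie below 0, from a log2 ratio of -0.64 for the calcium- or sodium-activated genes to -2.26 for the silent Kv subunits.

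*Kcnk9* (TASK-3) was farthest apart, at 0.17 ± 0.15 CPM in neurons and 5.74 ± 0.75 in naive control ganglia (SD, n = 3). *Kcnj10*, the glial channel, stood at 7.22 ± 1.10 against 122.0 ± 7.33 CPM, *Kcng4* at 3.19 ± 0.93 against 38.5 ± 5.47 and *Kcnj3* at 3.65 ± 0.92 against 43.5 ± 4.58. *Kcnj13* was also among the 5 lowest, but an overlapping gene holds many times its counts. *Kcna2* was among the lower ones as well, at 68.8 ± 30.4 against 595.1 ± 72.5 CPM, the highest neuron library holding less than the lowest ganglion. *Kcnh4* (1.53 ± 0.41 against 0.17 ± 0.04), *Kcnmb3* (1.11 ± 0.0099 against 0.15 ± 0.06), *Kcne3* (3.08 ± 0.56 against 0.57 ± 0.02), *Kcnj8* (9.38 ± 1.81 against 2.44 ± 0.52) and *Kcnq1* (14 ± 2.04 against 3.66 ± 0.74) lay highest relative to ganglia. *Kcnh4* and *Kcne3* also rose after crush, and *Kcnk16* did not follow them, at 0.30 to 0.53 CPM in control and 0.08 to 0.18 CPM in cKO neurons.

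Several summed cell type markers stood at other levels in the neuron libraries than in ganglia. Summed neuron markers were 3927 to 4776 CPM against 6320 to 7515 in naive ganglia, satellite glia markers 1859 to 2895 against 2266 to 2546, which overlap, myelinating Schwann cell markers 588.8 to 746.4 against 3202 to 5203, and endothelial markers 941.8 to 1453 against 105.3 to 185.5. Injured neuron markers were at 1123 to 1246 CPM against 236.5 to 275.1 in naive and 940.8 to 1324 in crushed ganglia. *Rest* was at 42.3 to 54.2 CPM in neurons. Cell make-up and expression per cell cannot be told apart here.

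Sham surgery changed no member past the test. Between the ipsilateral and the contralateral side, averaged over genotypes (4 libraries a side, both from each mouse), edgeR called 0 of 86 members against 0.00451% of all genes, with 17 at an unadjusted p under 0.05 (19.8%, and 7.56% of all genes), and DESeq2 called 1, *Kcnk16*. It stood at 0.29 and 0.56 CPM in contralateral cKO and 0.56 and 0.75 CPM in contralateral control libraries, and at 1.09 and 3.06 CPM in ipsilateral cKO and 1.80 and 1.58 CPM in ipsilateral control libraries. Every ipsilateral library lay above every contralateral one (edgeR log2 fold change 1.83, SE 0.363, adjusted p 0.287; DESeq2 1.82, adjusted p 0.00186). DESeq2 called 0.903% of all genes there. Markers of injured neurons were also higher on the ipsilateral side, at 367.7 to 515.9 against 255.8 to 269.6 CPM. Libraries of the sides did not overlap for 2 members on the higher and 2 on the lower side, against 2.93% and 1.32% of all genes. *Kcna2* was next, with a log2 fold change of -0.20 (SE 0.055, adjusted p 0.472) and overlapping libraries.

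Between genotypes on the ipsilateral side, edgeR called 0 of 86 members against 0.00451% of all genes, with 15 at an unadjusted p under 0.05 (17.4%, and 7.59% of all genes) and 1 called by DESeq2, beside 0.69% of all genes. On the contralateral side edgeR called 0 of 86 members and 0 of all genes, with 6 at an unadjusted p under 0.05 (6.98%, and 5.23% of all genes) and 0 called by DESeq2. On the ipsilateral side *Kcnk2* (TREK-1), the DESeq2 call, stood at 43.8 and 28.1 CPM in cKO and at 21.9 and 20 CPM in control libraries (edgeR 0.78, SE 0.187, adjusted p 0.498), and a pseudogene within it, Pdcd5-ps, holds 45.2% as many counts. *Kcnk1* was at 44.6 and 45.9 CPM in cKO and at 55.9 and 57.0 CPM in control libraries (-0.32, SE 0.076, adjusted p 0.498). On the contralateral side *Kcnk4* (-0.33, SE 0.1) and *Kcnn4* (-0.40, SE 0.122) had the smallest p values, each with an adjusted p of 0.88. Libraries did not overlap for 7 members on the higher and 22 on the lower side ipsilaterally, against 17.6% and 15.7% of all genes, and for 11 and 14 contralaterally, against 19.9% and 19.1%. Ipsilaterally the summed neuron markers were at 8332 and 8427 CPM in cKO and at 8706 and 9054 CPM in control libraries, and large neuron markers at 2425 and 2750 against 2937 and 2978, neither of which overlap. In the cKO libraries 3 of 9 neuron, 2 of 5 large neuron, 0 of 6 myelinating Schwann cell and 7 of 7 macrophage markers were on the higher side, and no marker was called. Also higher were 7 of 7 injured neuron, 5 of 5 T cell and neutrophil and 4 of 4 fibroblast markers. For nociceptor, satellite glia and endothelial markers it was 2 of 7, 2 of 7 and 1 of 5. Their part in the member values was not tested.

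Relative to naive control ganglia, which are female and from mice given tamoxifen, and with no test, contralateral sham control libraries, which are male, were at least 2-fold lower without overlap for 7 of 79 members and higher for 1, against 14.6% and 12.4% of all genes. Sex, treatment and surgery cannot be told apart there. Both ipsilateral cKO libraries stand apart in some members. In library 1 *Kcnk3* (TASK-1) stood at 69.4 CPM, against 31.8 CPM in library 2 and 20 to 26 CPM in the other 6, and *Kcnk2* was also highest there. The same library had a summed level of 6 posterior *Hox* genes of 134.5 CPM, against 45.53 to 83.8 in the other sham libraries, and of *Chrna3*, *Chrnb4*, *Cartpt* and *Penk* of 259.3 CPM, against 32.38 to 111.1. In library 2 *Kcna7*, a Kv1 subunit of muscle, stood at 4.15 CPM, against 0.05 to 0.29 in the other sham libraries. There 8 skeletal muscle genes summed to 2278 CPM, against 3.702 to 415.3. These 3 gene lists were chosen after the values were seen, and their part in the member values was not tested.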

How the data were processed

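The authors trimmed reads with Trim Galore, aligned them to mm10 with HISAT2 and counted reads per gene with featureCounts, per the submitters' processing notes; versions and the strand setting are not given in the sources used here. Their deposited tables hold raw counts per gene in 2 tables, one for naive and crushed ganglia and one for sham ganglia and neurons. The authors also deposited FPKM values, and for 99.4% of genes the length behind them is the whole gene span within 0.1%. The pair *Tsix* and *Xist* held nearly the same counts in the libraries with such transcripts, so the counts appear not to use strand. Columns of no labelled sample numbered 0.

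Genes were tested with edgeR 4.0.16 in R 4.3.3 (quasi-likelihood test, TMM factors, filterByExpr with a minimum count of 10 and total of 15), separately for naive and crushed ganglia (21261 genes), neurons (23295) and sham ganglia (22160), with Benjamini-Hochberg adjustment over all genes of each fit and a threshold of 0.05. DESeq2 1.42.0 was an alternative, as were RLE factors, filters, sex, the replicate number as a block and each library left out. CPM were scaled within each fit, and across all 26 libraries where neurons or sham ganglia were set beside naive ones. Genes named were, by rule, the 15 members at 1 CPM or more with the largest change among those called in the averaged crush comparison, the 2 with the smallest p in each comparison without a call, 30 fixed for known roles in sensory neurons and glia, the 5 highest and 5 lowest by FPKM, and the 5 farthest apart in each direction between neurons and ganglia; others complete a family or were chosen after their values were seen. Some genes that the rule names are not reported here. Members and lists were chosen with earlier results of these data known. Scripts were tested on simulated data. The labels give each library of a group its own mouse number. Replicate numbers do not pair naive, crushed or neuron libraries (no shared source in the labels, and not every correlation over 0.1); both sham sides come from the same mouse, per the labels, with correlations of -0.16 in cKO and 0.23 in control mice.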

Additional observations from a re-analysis of the deposited data

Results flagged for a closer look

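The 9 members with the smallest p values between genotypes were compared across settings, and in 3 of them the difference of cKO from control went opposite ways in different settings, every cKO library lying on one side of every control library. The difference between settings was not tested. *Kcnk2* was at -0.17 on the log2 scale in naive ganglia and at 0.78 in ipsilateral sham ganglia, where library 1 of the cKO group held the most. *Kcnk4* was at 0.64 in neurons and at -0.33 in contralateral sham ganglia. *Kcnt2* was at 0.72 (0.715) in neurons, at -0.23 in ipsilateral and at -0.09 (-0.088) in contralateral sham ganglia. Over all tested members, of which the others are not named here, 13 of 758 pairs of settings, or 1.72%, were opposite in this way, against 2.31% over all genes. None of the differences named here passed edgeR's adjusted test in the main fits. With no filter on low counts, *Kcnk2* passed it in ipsilateral sham ganglia (0.76, edgeR adjusted p 0.00119). DESeq2 called *Kcnk2* there (adjusted p 0.00488) and *Kcnk4* in neurons (DESeq2 adjusted p 0.00172).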

How the results depend on the processing

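The crush counts stayed within 1.5 times of 36 in control, 31 in cKO and 51 averaged under each alternative run, with 1 exception: when the sex that the transcripts showed was a term of the model, the cKO count was 8. In that fit 2 of the 3 crushed cKO libraries are male and all naive ones female, so that sex and crush overlap. The fit without both libraries whose transcripts go against their label was chosen after seeing the data. Leaving out 1 library gave 24 to 36, 22 to 35 and 44 to 54 calls. With the replicate block the counts were 33, 31 and 48, and 0 in every genotype or side comparison, so that it changed no other count; for the sham sides the block was the mouse. DESeq2 called 1 member where edgeR called 0 in neurons, in ipsilateral sham ganglia and between sham sides, beside 0.70%, 0.69% and 0.903% of all genes. With no filter on low counts, 8 members were called between genotypes in ipsilateral sham ganglia and 5 between sides, beside 1.79% and 1.09% of all genes; the cause was not tested. Leaving out 1 sham library gave 0 to 2 and 0 to 1. Without ipsilateral cKO library 1 the genotype test called *Kcna7* (4.40) and 0.43% of all genes, and without library 2 *Kcnk2* (1.04), *Kcnk3* (1.56) and 0.131%; each leaves 1 cKO library, which is assumed to vary like the other sham groups, so these calls describe that library. Between sides, *Kcnk16* (2.10) was called without library 1, with 0.373% of all genes. Members at least 2-fold lower in neurons numbered 47, and 43 to 51 with 1 library left out. Of the values of 29 named results, over 39 settings in all, 514 kept their direction and side of the threshold, 9 passed it only in the alternative and 1 lost it (*Kcnn3* with transcript sex, -0.45, edgeR adjusted p 0.0606), and 0 changed sign. Sham groups of 2 libraries limit what could be detected, and members under 1 CPM rest on few counts.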
